A study of Phanerodontia chrysosporium with 8 samples.

Results

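Gene models of the white-rot fungus Phanerodontia chrysosporium that were expressed without a single uniquely placed read are described here. A model was included where its unique gene reads were 0 in all 8 libraries and its total gene reads, which add reads that also match other places, were above 3 in at least 1 library. These read counts chose the models and are given as a description. Of 13602 models, 698 had no unique read in any library, and 61 of these passed the limit. A further 621 had no read at all, and 16 had 1 to 3 reads in their highest library. Just inside the limit lay models 2979678 and 2990929, with 4 reads each in their highest library, and 7 of the 61 models did not exceed 10 reads in any library.

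Polyadenylated RNA of strain RP-78 was sequenced from vegetative mycelium (VM, n = 3), from young fruiting bodies (YFB, n = 2), collected as compact initials with a sharp border against the mycelium, and from fruiting bodies (FB, n = 3), collected when spore release had begun. Cultures grew on cellophane over a malt, yeast, peptone and glucose agar for 7 days at 37 °C in darkness and were then kept in a moist chamber at 25 °C in dim light. The labels do not say whether mycelium was taken before that move, so developmental stage and culture conditions (temperature, light, moisture and age) cannot be told apart. The libraries of a stage are labelled biological replicates without naming separate cultures, so the p-values rest on the spread among these libraries, which may be technical.

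Genomes of filamentous fungi hold gene families whose copies can be nearly the same in sequence, such as recently duplicated genes, subtelomeric repeats and transposable elements. Assemblies of sequenced isolates can also carry both alleles of 1 locus as separate models. A short read from a stretch that copies share fits each of them equally well, so a read counter must place it by a rule, and a model with no distinguishing base in reach of a read can collect reads without ever receiving a unique one. A level counted this way belongs to the set of copies, not to a single locus. The files give JGI identifiers without gene or product names, so the models are named by identifier only, and neither their products nor their sequences were analysed here.

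The 61 models held 177782 reads, which is 18.4% of the 966294 non-unique gene reads in the 8 libraries and 0.0981% of all gene reads. The remaining non-unique reads lay on the 16 models below the limit and on 1938 models that also had unique reads. Libraries held 16248163 to 35998252 total gene reads, and 3 reads, the most that a count of 0 allows, stood for 0.0833 to 0.185 CPM (reads scaled to the library total). Such limits cover counting error only. One fruiting body library, replicate 3, was unlike the rest of its stage. Over all 13602 models, which are not independent replicates, its log2 of CPM + 1 correlated at 0.923 and 0.939 with replicates 1 and 2 of that stage. Between those libraries the correlation was 0.988. With mycelium it was 0.901 to 0.907 for replicate 3 and 0.833 to 0.871 for replicates 1 and 2. Replicates 1 and 3 of the fruiting bodies shared a flowcell of their own.

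The 61 models were chosen by their unique gene reads and by total gene reads above 3 in at least 1 library. How widely they exceeded 3 reads is therefore a description, and it was not compared with other models. All 8 libraries exceeded 3 reads in 39 of the 61 models, and 48 did so in at least 1 library of each stage. By contrast, 8 models exceeded 3 reads in libraries of 1 stage alone, 4 of them in a single library. The models were shorter than the annotation as a whole, with a median length of 776 bp (229 to 2723) against 1184 bp over all models. Lengths divisible by 3, which every uninterrupted coding sequence has, made up 49.2% of the 61 models, 63.9% of all models and 86.8% of the models with no read.

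**Figure D1:**
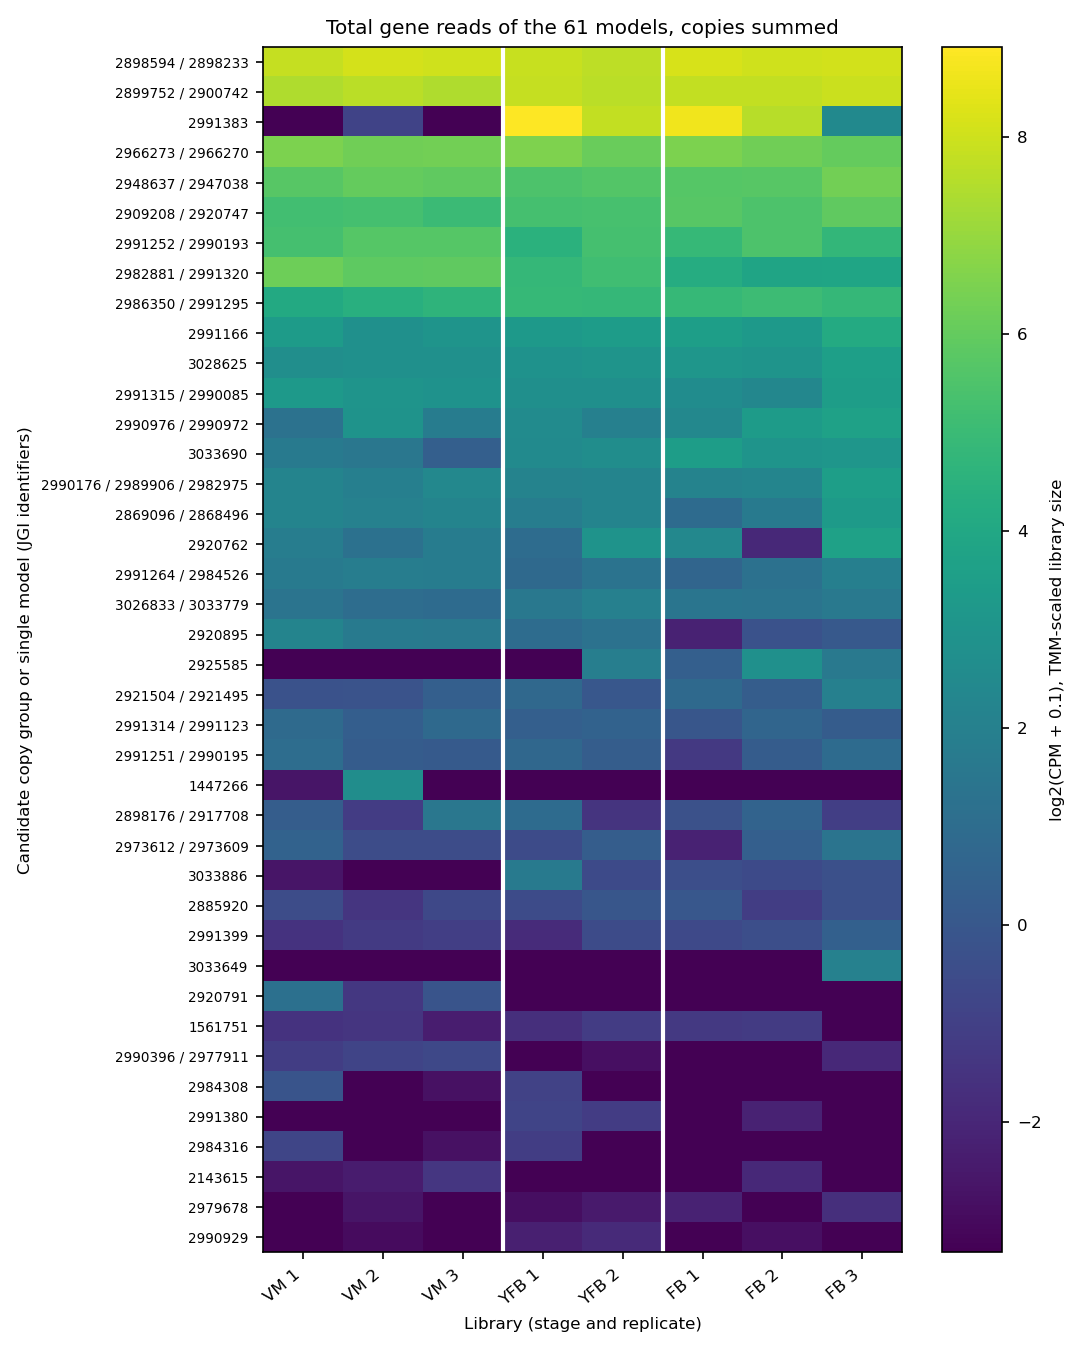
Level of the 61 models in each library, as log2 of CPM + 0.1 on TMM-scaled library sizes, with the copies of a candidate group summed into 1 row and rows in order of total reads. Colour runs from below −3 (dark, no reads) to above 8 (yellow), and white lines part the stages. Most of the upper rows keep near the same shade across the 8 libraries, while the row of model 2991383 is dark in all 3 mycelium libraries.

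Many of the models came in candidate copies. Models of exactly equal length whose reads summed over the libraries lay close together, the smaller at least 0.8 times the larger, were put in 1 candidate copy group. This gave 19 pairs and 1 triple, which held 41 models and 79.5% of the reads. The other 20 models had no such counterpart among the 61. The read totals used for grouping were sums over all libraries, and the counts of each library are parts of these sums. How shared reads were placed is not given, so near-equal counts per library are a description and no separate support for the copies. In the 79 combinations of pair and library with at least 100 reads, the copy with the larger sum took a median of 50.4% of them (44.1 to 55.5%). The reads do not tell such copies apart, so each pair is read below as 1 quantity. Lengths divisible by 3 made up 34.1% of the grouped models and 80.0% of the 20 others.

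**Figure D2:**
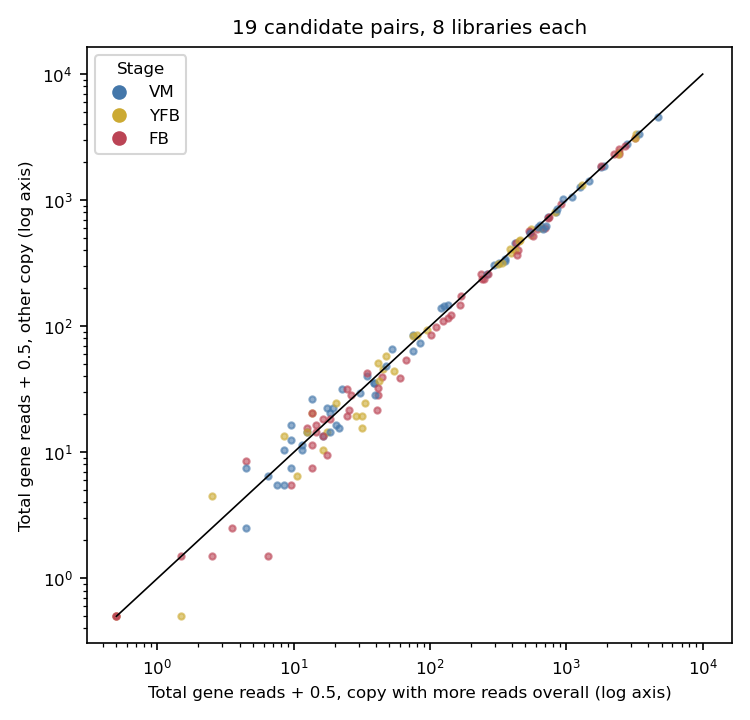
Total gene reads of the copies in 19 candidate pairs, 1 point for each library, with 0.5 added to every count and both axes logarithmic. The horizontal axis shows the copy with the larger sum, the vertical axis the other copy, and the line marks equal counts. Points at 100 reads or more hug the line at every stage, and the scatter widens towards the lowest counts.

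A few of the single models had a candidate counterpart outside the 61. For model 3028625 (1260 bp), the non-unique reads of model 3057603 (1311 bp) stayed within that limit in all 8 libraries searched, and for model 2920895 (945 bp) those of model 2529476 (1588 bp) did so in all 5. Both counterparts were mostly covered by unique reads, 5460 for model 3057603 and 11737 for model 2529476, against 1355 and 446 non-unique ones. This search at any length was chosen after the data were seen. By equal length, models 2991399 and 2979678 each had 1 candidate among the other models, on low counts. Model 2991383, which had the most reads of all single models, had no counterpart by either search. Models 2984308 and 2984316, both 900 bp, missed the limit with 26 and 19 reads in all. They had reads in the same 3 libraries and in no other. Model 2984308 had 13, 1 and 12 reads in mycelium replicates 1 and 3 and young fruiting body replicate 1, and model 2984316 had 8, 1 and 10.

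Levels per length are given as RPKM, total gene reads scaled to model length and to TMM-scaled library size. The models' own mean level over the 8 libraries had a median of 3.06 RPKM, and 19 of the 61 lay below 1 RPKM. Summed over copies, 13 of the 40 groups and single models reached a mean of 10 RPKM. The 5 groups with the most reads held 65.4% of the reads of the 61 models, and 4 of them passed the test in no contrast. Stages were compared with edgeR's quasi-likelihood test on the total gene reads of all models, with Benjamini-Hochberg adjustment over all of them and an adjusted p below 0.05 as the threshold, and the copies of a group were summed before the test. In such bulk samples, fewer cells of a type and less RNA per cell cannot be told apart.

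The highest mean level belonged to the pair 2898594 and 2898233 (447 bp). Together they had 514, 621 and 595 RPKM in mycelium, 537 and 468 in young fruiting bodies, and 651, 581 and 604 in fruiting bodies. Mycelium overlapped both other stages, young fruiting bodies lay below fruiting bodies without overlap, and the library with the highest level exceeded the lowest by a factor of 1.39. The log2 fold change was -0.20 ± 0.20 (SE) for young fruiting bodies against mycelium and 0.09 ± 0.18 for fruiting bodies against mycelium (edgeR, adjusted p = 0.497 and 0.747). Fruiting bodies against young fruiting bodies gave 0.29 ± 0.20 and did not pass (edgeR, adjusted p = 0.855).

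The 2199 bp pair 2899752 and 2900742 had 79.9, 91.2 and 78.7 RPKM in mycelium, 104 and 92.2 in young fruiting bodies, and 102, 101 and 112 in fruiting bodies. Every library of young or mature fruiting bodies lay above every mycelium library, though by little, and the log2 fold change of 0.34 ± 0.17 for fruiting bodies against mycelium did not pass the test (edgeR, adjusted p = 0.166). The 903 bp pair 2966273 and 2966270 was close to flat, with mean levels of 89.9 ± 8.36 (VM, n = 3), 91.4 ± 19.5 (YFB, n = 2) and 85.8 ± 13.9 RPKM (FB, n = 3; ± SD). The longest pair, 2948637 and 2947038 (2723 bp), averaged 21.9 ± 2.00 RPKM in mycelium, 17.4 ± 0.984 in young and 22.5 ± 5.63 in mature fruiting bodies (± SD). Its highest value, 29.0 RPKM, was that of fruiting body replicate 3. Neither pair passed the test in any contrast.

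The fifth group by reads did pass in 1 contrast. The pair 2909208 and 2920747 (1329 bp) had 27.5, 29.8 and 24.5 RPKM in mycelium, 29.5 and 30.5 in young fruiting bodies, and 40.7, 34.3 and 45.0 in fruiting bodies. All fruiting body libraries lay above the other 5, and the pair rose by 0.55 ± 0.18 on the log2 scale in fruiting bodies against mycelium (edgeR, adjusted p = 0.0434). The call did not last when any of the 8 libraries was left out, with adjusted p from 0.0555 without fruiting body replicate 2 to 0.1495 without mycelium replicate 3 (edgeR). It was also lost with the replicate block (edgeR, adjusted p = 0.0849). Tested as single models, 2920747 passed and 2909208 did not (edgeR, adjusted p = 0.0416 and 0.0900), so copies of 1 pair fell on either side of the threshold.

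The same test was run with each copy as a model of its own. Of the 61 models, 50 passed the filter on low counts and were tested, and 11 did not. Models 1447266 and 3033649, among the 11, had 209 and 74 reads in all, nearly all of them in 1 library. A model silent at 1 stage enters the test through its reads at another, so the counts below describe the tested models and support no statement on all 61. In young fruiting bodies against mycelium, 3 of the 50 were higher and 3 lower, or 12.0%, beside 25.9% of all models tested. In fruiting bodies against mycelium, 5 were higher and 4 lower, or 18.0%, beside 31.7%. Across the 3 stages together, 7 were called, or 14.0%, beside 28.7%. Whether these shares differ from the backgrounds was not tested.

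Fruiting bodies against young fruiting bodies gave 0 calls by edgeR among the 50, beside 0.0% of all models. At an unadjusted p below 0.05 there were 3 of 50, beside 7.91% of all models. DESeq2 called 2, the copies 2982881 and 2991320 of 1 candidate pair, which are 1 quantity. Limma-voom called 0, as did limma-trend fitted to the authors' log2 values. Shares over all models under these methods are not given here. Without a filter on low counts, all 61 models entered, and 8, 0 and 10 were called by edgeR in young fruiting bodies against mycelium, fruiting bodies against young fruiting bodies and fruiting bodies against mycelium, beside 25.0%, 0.0% and 30.6% of all models. Across the 3 stages 9 were then called, beside 27.7%. The median log2 fold change of the 50 models was 0.02, 0.21 and 0.28 in these contrasts, beside -0.0035, 0.04 and 0.05 over all models. Without fruiting body replicate 3 the median of the 50 was 0.03, 0.01 and -0.06, so its higher values in fruiting bodies rested on that library. Adding a flowcell term gave 0.02, 0.06 and 0.01, where the level of the fruiting bodies rested on replicate 2 alone.

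With copies summed, 19 groups and 11 single models were tested, and the values of single models below come from that fit as well. It called 5 of the 30 in young fruiting bodies against mycelium, 0 in fruiting bodies against young fruiting bodies (2 at an unadjusted p below 0.05, beside 7.9% of all, and 1 called by DESeq2) and 8 in fruiting bodies against mycelium, with backgrounds of 25.9%, 0.0% and 31.7%. Called single models 2925585, 3033886 and 2920791 had 0 or 1 read at a stage and entered the test through their reads at another. The candidate pair 2990396 and 2977911 was not among the 19 groups tested. The counts below therefore describe the tested rows and do not compare groups with single models. Of the 19 groups, 1 passed in young fruiting bodies against mycelium and 2 in fruiting bodies against mycelium, and of the 11 single models 4 and 6 passed. Between 16 and 18 of the 19 groups stayed within 2-fold in each contrast. Of the 11 single models, 6 did so in young fruiting bodies against mycelium and 7 in fruiting bodies against young fruiting bodies. In fruiting bodies against mycelium 4 of the 11 did. Over all models the shares were 71.3%, 92.5% and 73.2% in these contrasts, in that order.

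**Figure D3:**
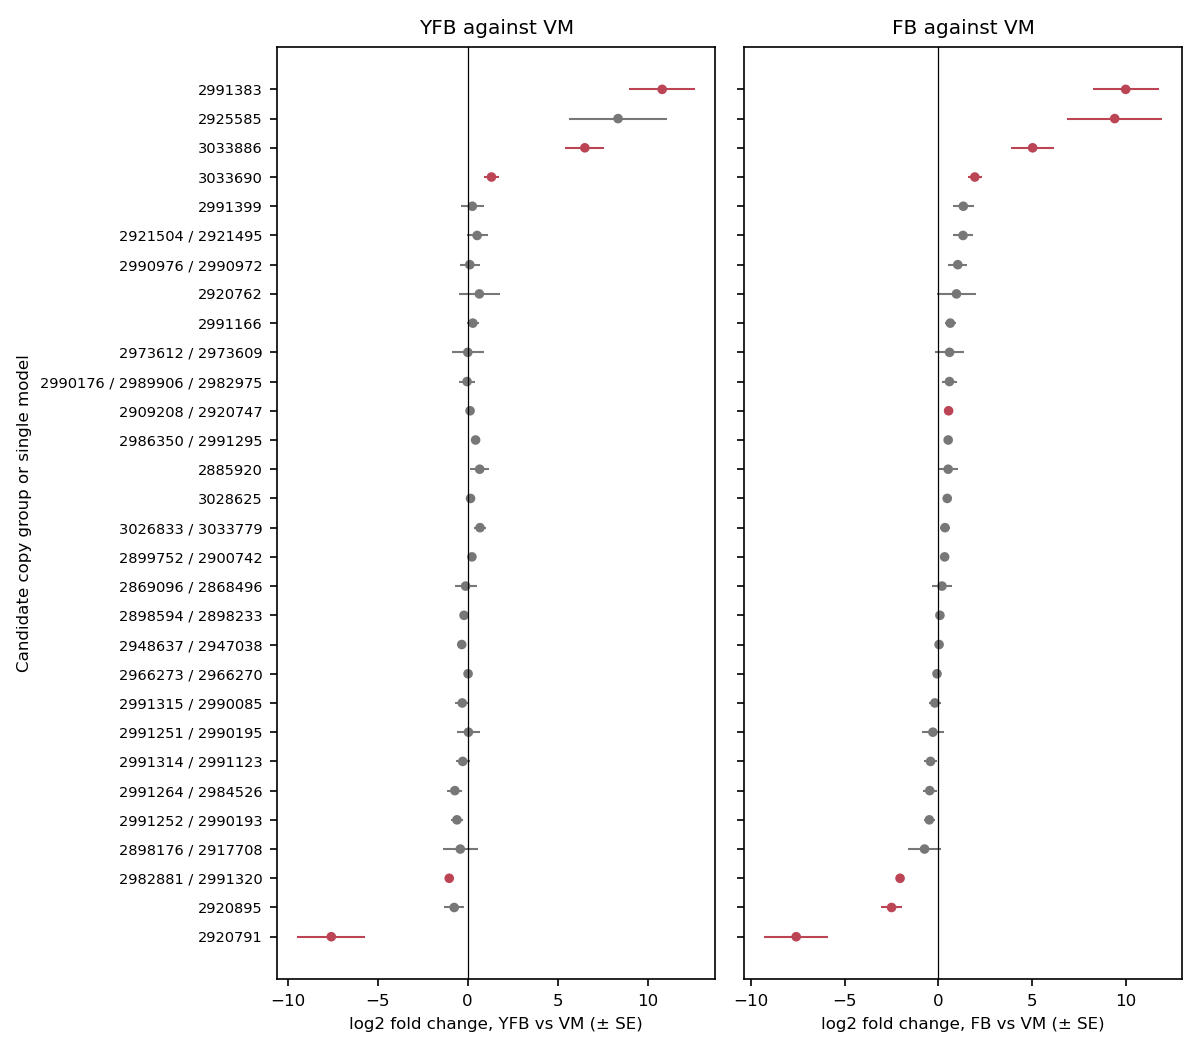
Log2 fold change (± SE) of 19 candidate copy groups and 11 single models in young fruiting bodies against mycelium (left) and in fruiting bodies against mycelium (right). Red marks an adjusted p below 0.05 (edgeR, copies summed). Values of models with no reads at 1 stage depend on the prior count of the fit and are no measure of size. Most groups lie near 0, and the long bars belong to single models.

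The widest change belonged to single model 2991383 (648 bp), which alone held 16.8% of the reads of the 61 models. It had 0, 15 and 0 reads in mycelium, 13250 and 5181 in young fruiting bodies, and 6593, 4702 and 103 in fruiting bodies. In RPKM these were 0, 0.691 and 0, then 746 and 346, then 622, 300 and 8.64. It was thus near absent from mycelium and as abundant as the top pair in the libraries where it was highest, while fruiting body replicate 3 lay between. It rose by 10.81 ± 1.83 on the log2 scale in young fruiting bodies and by 10.00 ± 1.77 in fruiting bodies against mycelium (edgeR, adjusted p = 0.00426 and 0.00408). Each of these calls held when any 1 of the 8 libraries was left out. With limma-voom the fruiting body contrast just missed the threshold (adjusted p = 0.0501, tested as a model). Between fruiting bodies and young fruiting bodies the log2 fold change was -0.81, smaller than its SE (edgeR, adjusted p = 0.955). Of 12534 tested models outside the 61, 497 (3.97%) followed its log2 CPM at r above 0.95 over the 8 libraries. For the others among the 10 models with the highest mean RPKM this number ran from 0 (2898233) to 68 (2991320, 0.543%). Whether it follows the size of a model's change was not tested.

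A pair changed in the opposite direction. Models 2982881 and 2991320 (875 bp) together had 85.9, 67.2 and 69.4 RPKM in mycelium, 32.2 and 40.8 in young fruiting bodies, and 21.7, 16.1 and 16.4 in fruiting bodies. The 3 stages did not overlap, and fruiting body replicate 3 lay with its stage. The pair fell by 1.02 ± 0.24 on the log2 scale in young fruiting bodies and by 2.04 ± 0.21 in fruiting bodies against mycelium (edgeR, adjusted p = 0.0151 and 0.000316). Fruiting bodies against young fruiting bodies gave -1.02 ± 0.23, which edgeR did not call (adjusted p = 0.249) and DESeq2 did (adjusted p = 0.0131). Without young fruiting body replicate 1 or 2 the log2 fold change was -0.86 and -1.18 and missed the threshold (edgeR, adjusted p = 0.132 and 0.0540), with 1 library left at that stage, assumed to vary like the others. The fruiting body call was kept without any 1 library.

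Both copies moved alike. Copy 2982881 had 619, 943 and 678 reads in mycelium, 395 and 422 in young fruiting bodies, and 164, 167 and 141 in fruiting bodies. Copy 2991320 had 609, 1027 and 595, then 377 and 403, then 146, 173 and 123. The copies are not independent evidence, since a shared read can be placed on either.

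**Figure D4:**
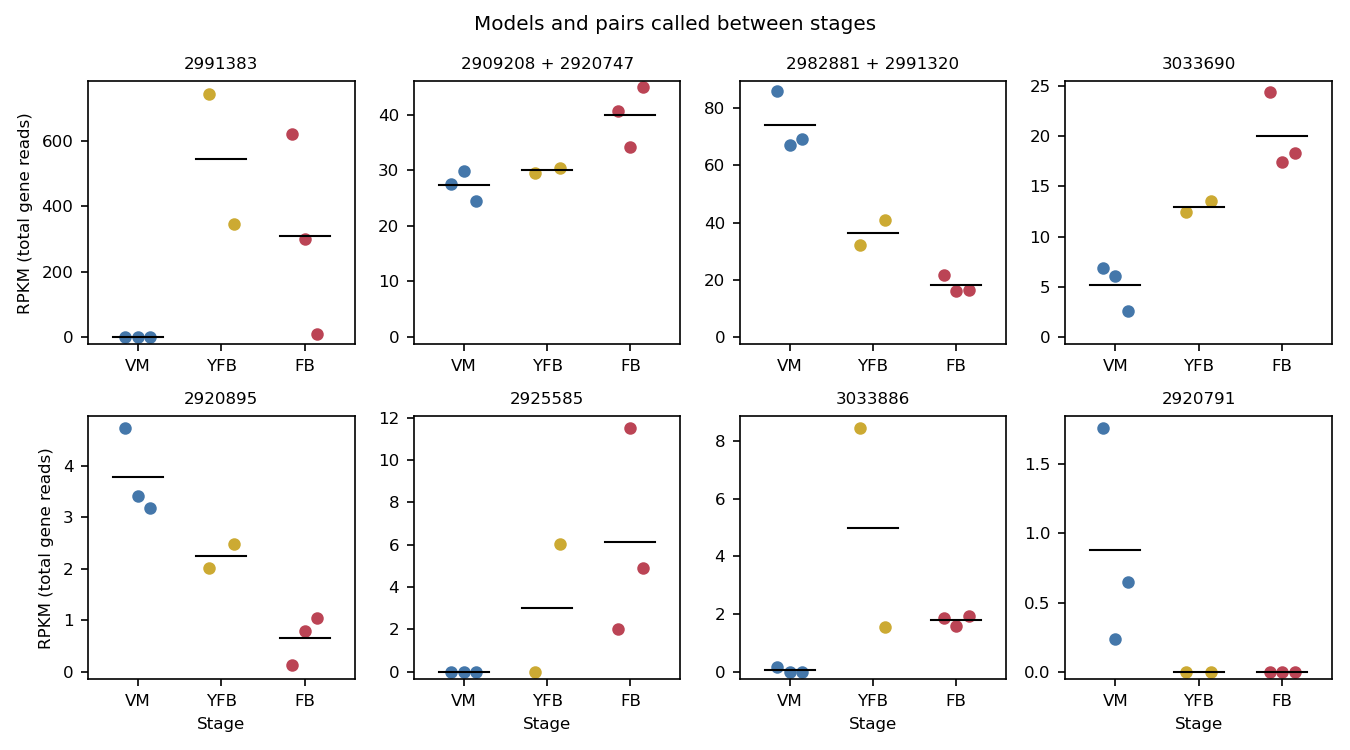
RPKM of the 6 single models and 2 pairs called between stages, 1 point per library with a line at the stage mean (VM n = 3, YFB n = 2, FB n = 3) and a separate vertical scale in each panel. Model 2991383 is near 0 in mycelium and at 8.64 to 746 RPKM in the fruiting libraries. The pair 2982881 and 2991320 steps down through the stages without overlap.

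Among the remaining called models, counts were low. Model 3033690 (462 bp) was not covered by the naming rule and was chosen after its values were seen. It had 6.89, 6.07 and 2.58 RPKM in mycelium, 12.5 and 13.5 in young fruiting bodies, and 24.3, 17.4 and 18.3 in fruiting bodies, with no overlap between stages. It rose by 1.95 ± 0.38 on the log2 scale in fruiting bodies against mycelium (edgeR, adjusted p = 0.00591) and by 1.32 ± 0.40 in young fruiting bodies (edgeR, adjusted p = 0.0424). The young fruiting body call was lost in 6 of 8 fits with 1 library left out, with adjusted p up to 0.152 without young fruiting body replicate 1, and with the replicate block (edgeR, adjusted p = 0.0772).

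Model 3033886 (363 bp) was all but silent in mycelium, with 1, 0 and 0 reads, against 84 and 13 in young fruiting bodies and 11, 14 and 13 in fruiting bodies. The ratio of scaled reads was 136 for young fruiting bodies over mycelium (95% exact interval 23.8 to 5423) and 45.7 for fruiting bodies over mycelium (7.72 to 1850), where the intervals cover counting error only. Young fruiting body replicate 1 held 84 of 97 reads, and without it the ratio was 39.8, while without young fruiting body replicate 2 it was 217. Without mycelium replicate 1, which had the 1 read, the bounds were at least 34.8-fold and 11.7-fold, and without mycelium replicate 2 the ratios were 71.6 and 24.1. Both contrasts were called (edgeR, adjusted p = 0.00384 and 0.0117). The fruiting body call was lost without mycelium replicate 2 (edgeR, adjusted p = 0.0575).

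Model 2925585 (609 bp) had no reads in mycelium or in young fruiting body replicate 1, and 85 in young fruiting body replicate 2. Fruiting bodies had 20, 169 and 55. With the mycelium at its limit of 3 reads over the stage, fruiting bodies were at least 97.7-fold higher (edgeR, adjusted p = 0.0316). The bound was 50.9-fold without fruiting body replicate 2, which held 169 of the 244 reads, and 51.5-fold without mycelium replicate 2. This call was lost on leaving out any mycelium or any fruiting body library (edgeR, adjusted p = 0.0530 to 0.104, highest without fruiting body replicate 3). Young fruiting bodies against mycelium missed the threshold (edgeR, adjusted p = 0.0657) and passed it without young fruiting body replicate 1 (edgeR, adjusted p = 0.0261), which leaves the 1 library with all 85 reads and takes its spread from the other stages.

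In the other direction, model 2920791 (1254 bp) had 36, 10 and 17 reads in mycelium and none in the 5 fruiting libraries. It was at least 15.0-fold lower in young fruiting bodies and at least 17.5-fold lower in fruiting bodies than in mycelium, with 3 reads over the stage as the limit (edgeR, adjusted p = 0.0367 and 0.0228). Leaving out 1 library put these bounds at 6.85-fold (without young fruiting body replicate 1) to 23.9-fold and at 9.74-fold (without mycelium replicate 1) to 27.9-fold, both highest without mycelium replicate 2. The young fruiting body call was lost without young fruiting body replicate 1 or 2 (edgeR, adjusted p = 0.152 and 0.112), each leaving 1 library at that stage, and the fruiting body call without fruiting body replicate 2 (edgeR, adjusted p = 0.0530). Without mycelium replicate 1 or 3 the model did not pass the filter on low counts. Model 2920895 (945 bp) fell by 2.49 ± 0.55 on the log2 scale in fruiting bodies against mycelium (edgeR, adjusted p = 0.0103). Its levels were 4.73, 3.41 and 3.18 RPKM in mycelium, 2.01 and 2.47 in young fruiting bodies, and 0.129, 0.788 and 1.03 in fruiting bodies.

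Other models varied between libraries of 1 stage rather than between stages. Model 2920762 (1281 bp) had 58, 76 and 73 reads in mycelium, 53 and 180 in young fruiting bodies, and 84, 4 and 238 in fruiting bodies, and passed in no contrast. Model 1447266 (1466 bp) had 208 reads in mycelium replicate 2, 1 in mycelium replicate 1 and 0 in the other 6 libraries. Model 3033649 (339 bp) had 74 reads in fruiting body replicate 3 and 0 elsewhere.

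Fruiting body replicate 3 moved several of the weaker calls. It was the highest library for 14 of the 30 tested groups and single models, or 46.7%, beside 18.7% of all models tested. Without it, 7, 0 and 11 of 50 models were called by edgeR in young fruiting bodies against mycelium, fruiting bodies against young fruiting bodies and fruiting bodies against mycelium, beside 41.1%, 0.669% and 48.7% of all models. The fruiting body calls against mycelium were then 4 higher and 7 lower. With copies summed, 3 more pairs fell in fruiting bodies against mycelium without it. These were 2991264 and 2984526 (532 bp, log2 fold change -0.88, adjusted p = 0.0372), 2991315 and 2990085 (778 bp, -0.63, 0.0499) and 2869096 and 2868496 (417 bp, -0.80, 0.0449, all edgeR). The pair 2869096 and 2868496 had a log2 fold change of 0.19 with all libraries, where its fruiting body levels were 4.40, 7.54 and 24.2 RPKM, against 10.9, 9.88 and 10.9 RPKM in mycelium.

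Flowcells differed within the fruiting bodies and at no other stage. A flowcell term therefore sets replicates 1 and 3 apart, and the level of the fruiting bodies then rests on replicate 2 alone. With the flowcell as a covariate, edgeR called 5, 0 and 3 of the 50 models in these contrasts, beside 22.0%, 0.00795% and 10.1% of all models. In fruiting bodies against mycelium, model 2991383 and both copies of the 875 bp pair were called, and 2920747, 3033690, 3033886, 2925585, 2920791 and 2920895 were not (edgeR, adjusted p = 0.0656 to 0.398). Their log2 fold changes were then 0.38 for 2920747, against 0.62 without the covariate, 1.75 for 3033690, against 1.95, and -2.25 for 2920895, against -2.49. Those of the other 3, which had 0 or 1 read at a stage, kept their sign. On the flowcell that held all stages, which leaves fruiting body replicate 2 alone for its stage and assumes that it varies like the others, 54 models were tested and 8, 0 and 6 were called, beside 38.6%, 0.514% and 27.9% of all models. Model 2920762, at 4 reads in that fruiting body library, was then called lower than in mycelium (log2 fold change -4.18, edgeR, adjusted p = 0.0233), whereas all libraries gave 0.97. Both copies of the 875 bp pair were called lower in fruiting bodies there too.

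Summed over the 61 models, CPM on plain library sizes was 749, 794 and 838 in mycelium, 1293 and 1013 in young fruiting bodies, and 1164, 992 and 1044 in fruiting bodies. All libraries of young and mature fruiting bodies lay above every mycelium library, a difference that rested mostly on 1 model. Without model 2991383 the sums were 749, 793 and 838 in mycelium, 803 and 779 in young fruiting bodies, and 791, 802 and 1037 in fruiting bodies, where only fruiting body replicate 3 lay above the mycelium range. On TMM-scaled library sizes without model 2991383 the sums were 784, 852 and 806 CPM in mycelium, 792 and 748 in young fruiting bodies, and 854, 821 and 916 in fruiting bodies, so replicate 1 of the fruiting bodies lay above the mycelium range as well, by less than 2 CPM. The non-unique reads of all other models summed to 4003 ± 281 CPM in the 3 mycelium libraries, 4483 ± 25.6 in the 2 young fruiting body libraries and 4811 ± 462 in the 3 fruiting body libraries (± SD).

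**Figure D5:**
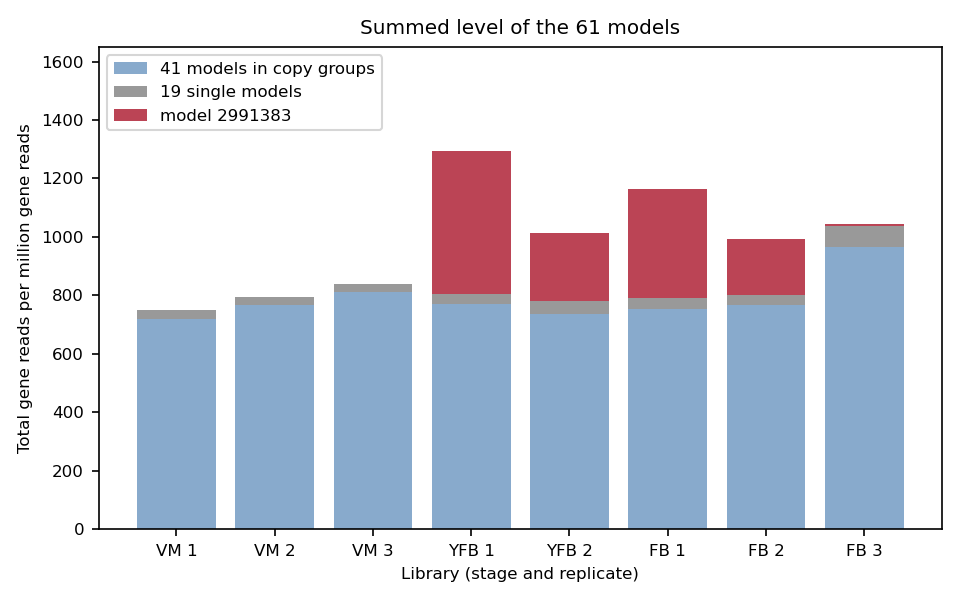
Summed CPM of the 61 models in each library, from total gene reads, stacked as the 41 models in copy groups, 19 single models and model 2991383. The parts other than model 2991383 add up to 749 to 838 CPM in 7 libraries and to 1037 CPM in fruiting body replicate 3, and model 2991383 lifts the young fruiting bodies and fruiting body replicates 1 and 2.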

How the data were processed

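Total and unique gene reads per model were taken as counts from the authors' per-sample tables, deposited with model length, per the file headers of a CLC RNA-Seq export. How reads that fit several models were placed, the aligner and the genome build are not given in the sources used here. Of the tools in the submitters' processing notes (limma 3.18.13, edgeR 3.4.2, R 3.0.2) the role is not stated. Strand is not recorded by the TruSeq RNA v2 kit used per the labels' protocols, so a model and an antisense neighbour that overlaps it share reads. A deposited log2 matrix of the authors holds 55 of the 61 models and served as an alternative, with limma-trend.

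Total gene reads of all models were fitted in R 4.3.3 with edgeR 4.0.16 (filterByExpr by stage, TMM, robust quasi-likelihood), all 8 libraries together with stage as the term, once by model and once with copies summed. Alternatives used DESeq2 1.42.0 and limma 3.58.1. All replicate pairs differed by more than counting noise (chi-square over its degrees of freedom, 69.1 to 322). RPKM used TMM-scaled library sizes. A count of 0 was taken to allow 3 reads. Exact intervals (95%) are Clopper-Pearson and cover counting error only. Named models were the 10 with the highest mean RPKM, the 2 largest rises and falls called per contrast, the 5 copy groups with the most reads and those at the read limit. The models and lists were chosen with earlier results of these data known. Lists by gene product could not be used, as identifiers are not paired with names.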

Additional observations from a re-analysis of the deposited data

Results flagged for a closer look

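The 11 models that the filter on low counts kept out of the reported stage tests had more than 3 reads in at least 1 library. The rule of inclusion requires this. Without a filter on low counts, edgeR called 2 of them. Model 2977911 was called lower than in mycelium at both fruiting stages (edgeR, adjusted p = 0.0329 in young and 0.0457 in mature fruiting bodies). Its candidate copy 2990396 entered the same fit and was not called at either stage. Model 2991380 was called higher at the young stage than in mycelium (edgeR, adjusted p = 0.0221). It had no reads in mycelium and 13 and 8 in young fruiting bodies, the stage through which it met the rule of inclusion. With mycelium at its limit of 3 reads over the stage, it was at least 9.81-fold higher. Leaving out 1 library put this bound at 5.17-fold (without mycelium replicate 2) to 11.2-fold (without young fruiting body replicate 2). Model 1447266 reached 208 reads in mycelium replicate 2 and model 3033649 reached 74 in fruiting body replicate 3, each in that library almost alone. Models 2984308 and 2991380 reached 13 reads, in mycelium replicate 1 and young fruiting body replicate 1. Model 2984316 reached 10 in young fruiting body replicate 1. Models 1561751, 2990396 and 2977911 reached 9, 9 and 7 in mycelium replicate 2, and model 2143615 reached 6 in mycelium replicate 3. Models 2979678 and 2990929 reached 4, in fruiting body replicate 3 and young fruiting body replicate 2. Models 2990396 and 2977911 form a candidate pair of 382 bp, with 6, 16 and 11 summed reads in mycelium, 0 and 1 in young fruiting bodies, and 0, 0 and 3 in fruiting bodies.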

How the results depend on the processing

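Of 47 counts of called models under alternatives other than leaving out a library, 44 lay within 1.5 times the reported count. The 47 include fruiting bodies against young fruiting bodies, where the reported fit called 0 of all 12584 models tested, so agreement at 0 says little there. The exceptions were DESeq2 in fruiting bodies against young fruiting bodies, with 2 models (1 with copies summed) against 0, and the flowcell as a covariate, with 3 models against 9 in fruiting bodies against mycelium and 4 against 7 across the 3 stages; the cause was not tested. Leaving out 1 library gave 2 to 7 models in young fruiting bodies against mycelium, 0 in fruiting bodies against young fruiting bodies, 6 to 11 in fruiting bodies against mycelium and 5 to 9 across the 3 stages. With copies summed these were 2 to 5, 0, 5 to 9 and 4 to 7. By model, the highest counts, 7, 11 and 9, came without fruiting body replicate 3, where 41.1%, 48.7% and 47.5% of all models were called. With all libraries these shares were 25.9%, 31.7% and 28.7%. Deviations from the stage mean correlated at r from -0.26 to 0.23 for same-numbered libraries and from -0.249 to 0.305 for other pairs across stages. With 2 or 3 libraries per stage, these values cannot decide whether the numbers pair the samples. A fit with the replicate block called 4, 0, 8 and 7 models, and 4, 0, 7 and 6 with copies summed. Shares over all models for this fit and for leaving out other libraries are not given here, so these counts have no background beside them. The summed level of young fruiting bodies minus mycelium was 360 CPM, and -1.90 CPM without model 2991383 and -43.8 with TMM-scaled library sizes as well. Fruiting bodies minus mycelium gave 273 CPM, and 83.4 and 49.5 with these changes. Leaving out 1 library gave 219 (without young fruiting body replicate 1) to 500 (without replicate 2) and 225 to 310 CPM. Fruiting bodies minus young fruiting bodies gave -86.5 CPM, -227 to 53.7 on leaving out young fruiting body replicate 2 or 1, and 85.3 without model 2991383. Candidate copy groups numbered 20 with lengths within 1%, 17 with a limit of 0.9 in place of 0.8, and 21 by equal length alone. Chosen after seeing the data were equal length alone, limma-trend for the authors' log2 values, the counterpart search at any length, and the summed level with both changes. No value called with all libraries changed sign. Model 2920762 on the shared flowcell, and the pair 2869096 and 2868496 without fruiting body replicate 3, were called lower in fruiting bodies than in mycelium although all libraries gave a positive, uncalled log2 fold change.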
